A study of Mus musculus with 6 samples.

Results

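Tight junctions seal the space between neighbouring epithelial cells and set which ions and how much water pass between them. The genes of this junction were followed here in whole lung with and without Foxa2. They were a listed set, chosen with earlier results of these data known and not by a threshold. The set holds the claudins Cldn1, Cldn3, Cldn4, Cldn7, Cldn8, Cldn10 and Cldn18, occludin (Ocln), and the scaffold genes Tjp1 and Tjp3. Every probe set annotated with exactly 1 of these symbols was taken, which gave 18 of the 45037 probe sets on the array and 10 of 18193 genes. All 10 genes were measured, and no filter on dim signal was applied.

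Claudins are small proteins that cross the membrane several times. Their extracellular loops meet those of claudins on the next cell, and the mixture of family members decides whether a junction is tight or lets selected ions through. Occludin belongs to a separate family of membrane proteins in the same strands, and the ZO proteins encoded by Tjp1 and Tjp3 tie the strands to the actin cytoskeleton. In the lung, Cldn3, Cldn4 and Cldn18 are the main claudins of the alveolar epithelium, and Cldn10 is widely used as a marker of club cells, the secretory cells of the small airways.

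The RNA came from whole lungs of mice at postnatal day 15, 3 arrays from controls labelled wildtype and 3 from mice labelled Foxa2-/-, called null below. Foxa2, a DNA-binding protein of the forkhead class, is active in lung epithelial cells, and the series asked about its part in Th2 inflammation and in goblet cell hyperplasia. For strain, all 6 samples carry SPC(+)Cre(-) with doxycycline (Dox) from embryonic day 6.5 to 12.5, the same in both groups and at odds with the genotype label of the null lungs. SPC is the usual short name of surfactant protein C, whose promoter directs transgenes to lung epithelium, so cells outside that lineage would keep the gene; the labels do not describe the construct. Values are log2 RMA signals, in which 1 unit is a doubling. Levels of different probe sets are not comparable with each other, so only differences within a probe set are read.

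The Foxa2 probe set read 10.28, 10.56 and 10.28 in control replicates 1 to 3 and 7.72, 5.38 and 5.13 in null replicates 1 to 3, so the genotype label matches the signal in all 6 samples and null replicate 1 kept the most. Its difference was -4.30 (SE 0.66, limma adjusted p = 0.0599), so even the deleted gene itself stood just outside the threshold used here. RMA, which brings arrays to a common distribution, left medians of 7.85 to 7.91, so these do not compare the arrays' original brightness. Over all probe sets, null replicate 1 stood apart from the other null arrays (r of 0.976 and 0.977). Null replicates 2 and 3 had an r of 0.992 with each other. Gene differences are given with and without null replicate 1 where that matters. Control replicate 2 and null replicates 2 and 3 share the first number of their titles, treated as a possible batch. Null replicates 2 and 3 were closer to this control (r of 0.985 and 0.988) than to null replicate 1. The part of the title number in that order was not tested. The Gapdh controls at the 3-prime end exceeded those at the 5-prime end, a gap that widens as RNA breaks down, by 1.06 to 1.23 over the controls and 0.91 to 0.97 over the null lungs, while for b-actin the groups overlapped (0.46 to 0.65 and 0.43 to 0.47). The part of RNA quality in the differences below was not tested. The 11 measured genes of a general epithelial list (keratins, Cdh1, Epcam and others) averaged 11.13 to 11.26 per control array and 11.36 to 11.70 per null array, all null above all controls. None of the 11 passed the test used below. By gene, 9 were higher and 6 had all null arrays above all controls (10.8% of all genes). Cdh1 (-0.01) and Epcam (0.13) themselves differed little, with overlapping groups.

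The starts of 9 of the 10 genes were found in the RefSeq promoter table of assembly GRCm38.p6, with 14 starts in all and none for Cldn8. The 250 bases before each start were searched on both strands for 4 spellings of the core forkhead motif bound by FOXA proteins (TGTTTAC, its close form TGTTTGC, the alternative TATTTAC and its close form TATTTGC) and for the grainyhead motif AACCNGTT, bound by factors that regulate epithelial junction genes. Of the 14 stretches, 2 held a forkhead match, against 11.9% of 32851 stretches of the same length in the table, and both belong to Cldn18. None of the 14 held the grainyhead motif, which 1.79% of all stretches hold. A match is a string of letters and not evidence of binding, and the spellings were chosen with the results in view. The stretches of Cldn18 and Cldn10 are shown because these genes have alternative starts whose products differ: the Cldn18 starts make a lung and a stomach form, and the Cldn10 starts make forms with different ion preference. Each is written 5′ to 3′ on the gene's own strand, ending at the base before the start, with the forkhead match in capitals (GCAAACA, the reverse complement of TGTTTGC). The Cldn18 stretches lie on the minus strand at chr9:99717268-99717517 and chr9:99710064-99710313, and the Cldn10 stretches on the plus strand at chr14:118787621-118787870 and chr14:118854700-118854949.
Cldn18 start 1: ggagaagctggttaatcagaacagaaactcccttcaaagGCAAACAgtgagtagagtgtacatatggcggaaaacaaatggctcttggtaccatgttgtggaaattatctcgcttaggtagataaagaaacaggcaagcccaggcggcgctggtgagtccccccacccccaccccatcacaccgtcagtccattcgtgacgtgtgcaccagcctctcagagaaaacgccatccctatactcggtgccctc
Cldn18 start 2: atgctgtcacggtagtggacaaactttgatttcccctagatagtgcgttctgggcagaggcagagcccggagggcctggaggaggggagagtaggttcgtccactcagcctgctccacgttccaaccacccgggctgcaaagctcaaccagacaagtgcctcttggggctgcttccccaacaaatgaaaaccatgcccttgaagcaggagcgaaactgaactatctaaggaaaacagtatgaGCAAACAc
Cldn10 start 1: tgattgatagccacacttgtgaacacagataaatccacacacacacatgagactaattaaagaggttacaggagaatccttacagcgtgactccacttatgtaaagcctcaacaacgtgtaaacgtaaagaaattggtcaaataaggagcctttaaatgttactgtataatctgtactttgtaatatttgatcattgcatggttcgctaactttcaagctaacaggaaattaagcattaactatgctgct
Cldn10 start 2: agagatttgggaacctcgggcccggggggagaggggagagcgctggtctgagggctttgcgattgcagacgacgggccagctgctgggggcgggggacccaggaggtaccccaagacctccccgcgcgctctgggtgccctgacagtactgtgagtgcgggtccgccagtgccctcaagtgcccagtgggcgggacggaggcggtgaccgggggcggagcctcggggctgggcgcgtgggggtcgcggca
The match begins 211 bases before the Cldn18 start 1 and 8 bases before start 2. Neither Cldn10 stretch holds a match, and they differ in composition, with 36% G and C before start 1 and 72.4% before start 2. Which start each probe set reports was not analysed here.

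None of the 10 genes passed the test, limma at a Benjamini-Hochberg adjusted p under 0.05 over all genes, where 0.572% of 18193 genes passed, 0.473% higher and 0.0989% lower in null lungs. The members differed in both directions, 5 lower and 5 higher in null lungs, with a median difference of -0.01 against 0.01 over all genes. Their median absolute difference was 0.35, beside 0.16 over all genes. At an unadjusted p under 0.05 there were 4 members (Cldn8, Cldn10 and Cldn18 lower, Tjp3 higher), where 12.3% of all genes reached that level, 7.28% higher and 5.07% lower. In 5 members the groups did not overlap (19.6% of all genes), with all null arrays below all controls for Cldn8, Cldn10, Cldn18 and Tjp1 (8.73% of all genes) and all above for Tjp3 (10.8%). With limma fitted over probe sets, 0 of the 18 passed (0.0999% of all probe sets, 0.0799% higher and 0.02% lower). Of the 18, 7 had an unadjusted p under 0.05 (10.7% of all), 2 higher (6.03% of all) and 5 lower (4.66% of all). In 8 of the 18 the groups did not overlap (17.5% of all), with 2 above the controls (9.73% of all) and 6 below (7.76% of all). Because the members were chosen with earlier results of these data known, these shares describe the list and test nothing.

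**Figure D1:**
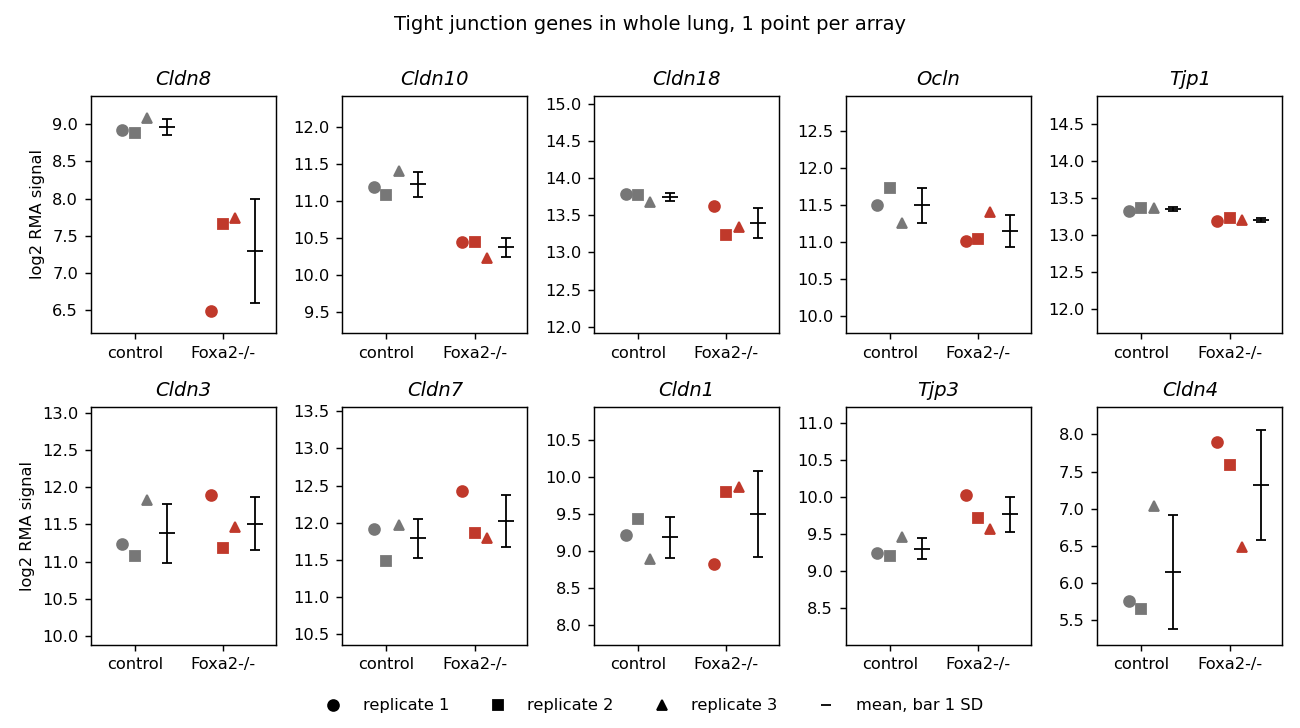
Log2 RMA signal (y axis, each panel spanning the same number of log2 units) of the brightest probe set of each gene in 3 control (grey) and 3 Foxa2-/- arrays (red), ordered by difference, with the group mean and 1 SD beside the points. Cldn8 and Cldn10 show the widest gaps downward, and in Cldn4, at the other end, control replicate 3 (7.03) lies above null replicate 3 (6.49).

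Cldn8 and Cldn10 had the most negative differences of the 10 members. Cldn8, which in the kidney collecting duct works with Cldn4 in the paths for chloride, read 8.92, 8.88 and 9.09 in controls and 6.48, 7.66 and 7.74 in null lungs. The groups are more than 1 log2 unit apart, and null replicate 1, the null array with the most Foxa2 signal, was the lowest of the 6. The mean went from 8.96 ± 0.11 to 7.29 ± 0.70 (SD, n = 3 each), 3.17-fold lower, a difference of -1.67 (SE 0.34, 95% interval -2.47 to -0.86, limma adjusted p = 0.106). Without null replicate 1 it was -1.26 (SE 0.11) with a limma adjusted p of 0.0206, past the threshold. Over control replicate 2 and null replicates 2 and 3 alone, which share that title number, it was -1.18. It also passed with array weights (-1.32, limma adjusted p = 0.0194) and with a random block for the title number (-1.50, limma adjusted p = 0.0484), but not with a fixed block for it (-1.18, limma adjusted p = 0.258), which rests on the same 3 samples. Without any other single array, adjusted p was 0.175 to 0.324.

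Cldn10, a claudin whose forms make pores for cations or anions, had the smallest p of the 10. Its only probe set read 11.19, 11.08 and 11.40 in controls and 10.44, 10.45 and 10.23 in null lungs. The arrays of each group lie close together, and all null arrays are below the lowest control. The difference was -0.85 (SE 0.13, 95% interval -1.17 to -0.52), 1.80-fold lower, with a limma adjusted p of 0.0605. It passed with array weights (-0.83, limma adjusted p = 0.0203) and with that random block (-0.79, limma adjusted p = 0.0308), and leaving out each array in turn gave -0.92 to -0.76, none past the threshold. With a fixed block for the title number, or within the samples sharing it, it was -0.73 (limma adjusted p = 0.339).

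Since Cldn10 marks club cells, other club cell genes are given beside it. Of 10 measured, 8 were lower in null lungs and 5 had all null arrays below all controls (8.73% of all genes). Gsta3, a glutathione transferase, passed (-1.20, SE 0.17, limma adjusted p = 0.0499), where 0.0989% of all genes passed as lower. The other 9 did not, and the list's median difference was -0.32. The list averaged 12.11 to 12.71 per control array and 11.77 to 12.41 per null array. Its lowest control mean is that of control replicate 2, in which Scgb3a1 (11.07) and Reg3g (8.62) were lower than in the other controls (13.16 and 13.49 for Scgb3a1, 11.63 and 12.34 for Reg3g). The part of club cells in the Cldn10 difference was not tested. In whole-lung RNA, fewer cells of a type and less RNA per cell cannot be told apart, for this gene and for those that follow.

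By the smallest mean absolute difference between profiles centred on their own mean over the 6 arrays, the genes most like Cldn10 among 18192 others were Gstz1 (0.07), Wnt10b (0.07) and the unnamed 1810062O18Rik (0.08). Gstz1, an enzyme of tyrosine breakdown, went from 10.41 ± 0.14 to 9.45 ± 0.05 (log2, SD, n = 3 each) and fell by 0.96 (limma adjusted p = 0.0367). Wnt10b, a secreted signal, also fell (limma adjusted p = 0.036), from 6.30 to 6.48 over the controls to between 5.33 and 5.47, and all 3 null values are below the 25th percentile of their arrays, so no size is given. The likeness describes these 6 arrays, which fall in 2 groups, and each such profile is mostly the group step.

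Cldn18 is the lung's alveolar claudin, and mice without it have leaky alveoli. Its brighter probe set read 13.78, 13.78 and 13.68 in controls and 13.63, 13.24 and 13.34 in null lungs. All null arrays are lower, null replicate 1 by the least. The difference was -0.35 (SE 0.13, 95% interval -0.67 to -0.03, limma adjusted p = 0.367), 1.27-fold. Without null replicate 1 it was -0.46 (SE 0.10, limma adjusted p = 0.109), and within the shared title number -0.49. The dimmer probe set read 10.84, 10.65 and 10.59 against 10.47, 9.35 and 9.76, again with no overlap and null replicate 1 the highest null array. Its difference over probe sets was -0.83 (SE 0.28, limma adjusted p = 0.367), 1.78-fold, and the 95% intervals of the 2 probe sets overlap. The brighter one lies near the top of the scale, whose array maxima were 14.72 to 14.88. Of 10 alveolar type I genes 8 were lower, with a median of -0.15 and none past the threshold. That list averaged 13.06 to 13.14 per control array and 12.87 to 13.02 per null array. The alveolar type II list was at 13.28 to 13.41 and 13.42 to 13.47.

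**Figure D2:**
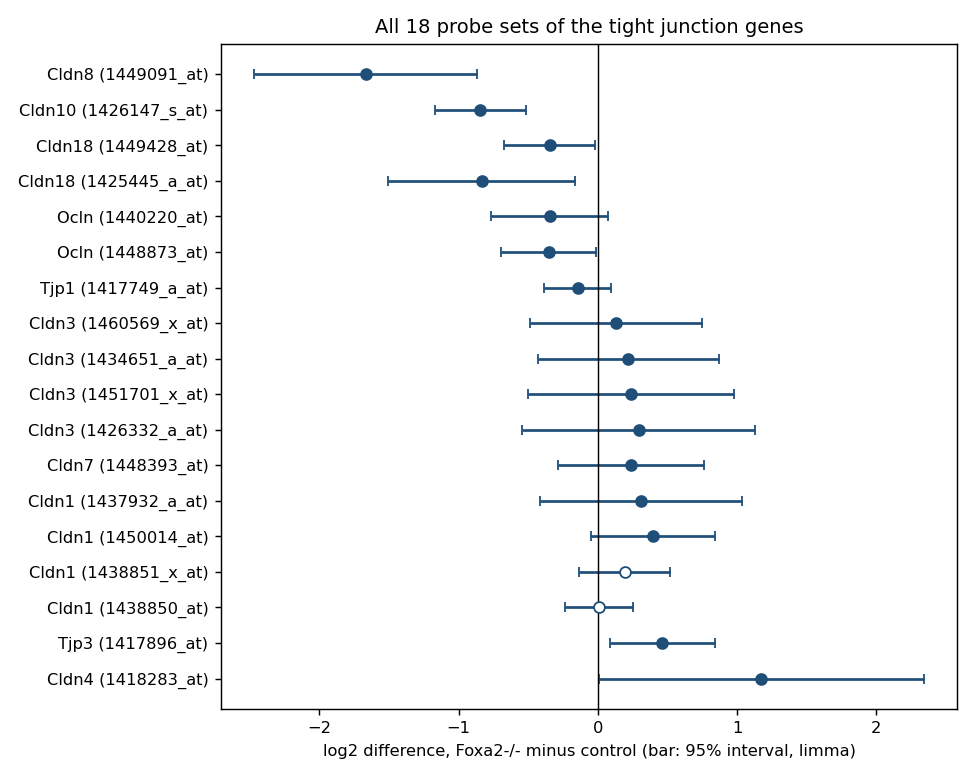
Log2 difference, Foxa2-/- minus control, of all 18 probe sets (x axis) with the 95% interval of the limma fit over 45037 probe sets; open points are dim, below the 25th percentile of signal on all 6 arrays. Both probe sets of Cldn18 and of Ocln and all 4 of Cldn3 point the same way within their gene, while the Cldn8 and Cldn10 intervals lie farthest below 0.

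Cldn3, Cldn4 and Cldn7, which are spread along airway and alveolar epithelium, were higher on average but their groups overlapped. Cldn4, a claudin that tightens junctions and is known to be induced when lung epithelium is injured, read 5.76, 5.65 and 7.03 in controls and 7.89, 7.59 and 6.49 in null lungs. Control replicate 3 lies above null replicate 3, and null replicates 1 and 2 lie above all controls. The difference was 1.18 (SE 0.49, 95% interval -0.00 to 2.35, limma adjusted p = 0.405), 2.26-fold. It was 1.39 within the shared title number, 1.62 without control replicate 3 and 0.89 without null replicate 1. Control replicates 1 and 2 are at about the 25th percentile of their arrays (5.75 and 5.69), so the size of the difference is uncertain.

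Cldn3, a barrier-forming claudin of alveolar type II cells, read 11.24, 11.07 and 11.83 in controls and 11.89, 11.18 and 11.46 in null lungs. Its 4 probe sets gave differences of 0.13 to 0.29, and in each of them null replicate 1 was the highest array and control replicate 2 the lowest. For the brightest, the 95% interval was -0.49 to 0.75, which leaves room for a difference of either sign. Cldn3 and Cldn4 are next to each other among the protein-coding genes of chromosome 5. In both, control replicate 3 was the highest control and null replicate 1 the highest null array. The same held for Cldn7 on chromosome 11 and Tjp3 on chromosome 10, so the order is not particular to the neighbours.

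Cldn7, found along the sides of epithelial cells as well as at the junction, read 11.92, 11.49 and 11.96 in controls and 12.43, 11.86 and 11.79 in null lungs. Only null replicate 1 is above all controls, and the difference of 0.24 (SE 0.22) was 0.04 without it and 0.09 without control replicate 2. Cldn1, best known for the water barrier of the skin, had a difference of 0.31 (SE 0.30, 95% interval -0.42 to 1.04). Its brightest probe set read 9.22, 9.44 and 8.89 in controls and 8.83, 9.80 and 9.86 in null lungs, with null replicate 1 below every control and the other null arrays above them all. Without null replicate 1 the difference was 0.64 (SE 0.18, limma adjusted p = 0.175), while leaving out null replicate 3 gave 0.13, and leaving out null replicate 2 or control replicate 3 gave 0.16 each. A dimmer probe set gave 0.40, with all null above all controls (5.68 to 6.04 against 6.06 to 6.59), and the remaining 2 were below the 25th percentile on all arrays.

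Occludin, which borders the strands and helps the junction recover after stress, read 11.49, 11.73 and 11.26 in controls and 11.01, 11.04 and 11.40 in null lungs on its brighter probe set, where null replicate 3 lies inside the control range. Its dimmer probe set read 10.77, 10.79 and 10.997 against 10.71, 10.39 and 10.38, with no overlap. The differences were -0.35 (SE 0.17, limma adjusted p = 0.491 over genes) and -0.35 (SE 0.14, limma adjusted p = 0.452 over probe sets), the first of which was -0.23 without control replicate 2. The gene next to Ocln on chromosome 13 is Marveld2, which encodes tricellulin, the related protein where 3 cells meet. It read 10.05 to 10.32 over the controls and 9.81 to 9.91 over the null lungs, a difference of -0.35 (SE 0.12, limma adjusted p = 0.293).

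Of the scaffold genes, Tjp1 (ZO-1) varied least of all 10 members. It read 13.32, 13.37 and 13.37 in controls and 13.19, 13.23 and 13.20 in null lungs. The groups do not overlap, yet the difference is small, -0.15 (SE 0.10, 95% interval -0.38 to 0.09, limma adjusted p = 0.607), and lies near the top of the scale. ZO-1 is made by endothelium as well as epithelium. The 10 endothelial genes were all lower on average in null lungs, with a median of -0.19, none past the threshold and overlapping array means (12.51 to 12.57 in controls, 12.18 to 12.53 in null lungs).

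Tjp3 (ZO-3), a scaffold found mainly in epithelial cells, read 9.25, 9.20 and 9.47 in controls and 10.03, 9.72 and 9.56 in null lungs. All null arrays are above the controls, null replicate 3 only just, and the difference was 0.46 (SE 0.16, 95% interval 0.09 to 0.84, limma adjusted p = 0.3), 1.38-fold. Within the shared title number it was 0.44, and without null replicate 1 it was 0.34.

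**Figure D3:**
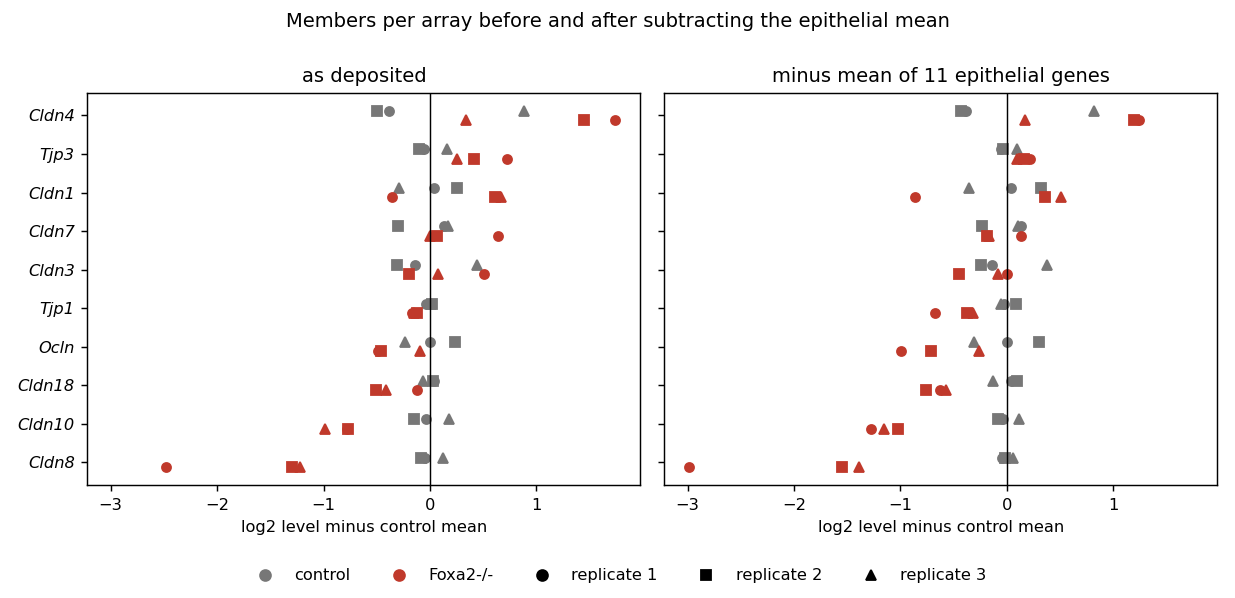
Level of each gene per array minus its control mean (x axis, log2), as deposited (left) and after the mean of 11 general epithelial genes was subtracted from each array (right), with controls in grey and Foxa2-/- in red. On the right Cldn8, Cldn10, Cldn18 and Tjp1 lie wholly below their controls, and the null points of Tjp3 move toward 0; some points cover each other.

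The mean of the general epithelial list was higher in all null arrays. Each member was therefore also set against it within each array, as a description without a test. This shifts the difference of every gene down by the same amount. The size of the shift follows the list mean, although Cdh1 (-0.01) and Epcam (0.13) in that list differed little. Cldn8 stood at -1.97, Cldn10 at -1.15, Cldn18 at -0.65, Ocln at -0.65 and Tjp1 at -0.45, and Cldn4 at 0.87. The groups overlapped for Ocln, Cldn4, Cldn3 (-0.18), Cldn7 (-0.07) and Cldn1 (0.00), and the null arrays of Tjp3 (0.16) stayed just above the controls. The same 4 genes as before had all null arrays below all controls. For Cldn8 the values per null array were -2.98, -1.55 and -1.39, against -0.04, -0.02 and 0.06 in controls.

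Over the members, null replicate 1 was the most displaced array. In it 4 members were above the highest control and 6 below the lowest, compared with 3 and 5 in null replicate 2 and 2 and 4 in null replicate 3. On their brightest probe sets, Cldn3, Cldn4, Cldn7 and Tjp3 were highest in null replicate 1 among all 6 arrays. Cldn1, Cldn8, Ocln and Tjp1 were lowest in it on theirs. The dimmer Ocln probe set instead had null replicate 1 as its highest null array (10.71). A dimmer Cldn1 probe set had null replicate 1 above all controls (6.06). Leaving out 1 array at a time left 5 to 7 members without overlap, beside 26.7% to 34.7% of all genes.

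**Figure D4:**
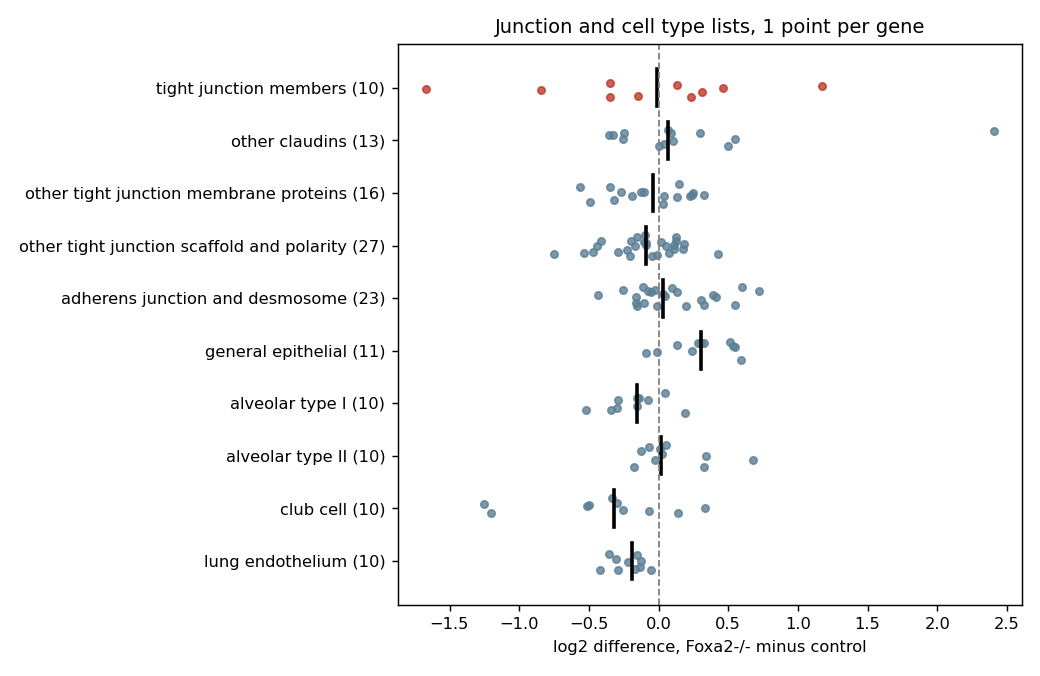
Log2 difference, Foxa2-/- minus control (x axis), for each gene of the 10 members (red), the other junction lists and 5 cell type lists, with the list median as a black bar, the number of genes in parentheses and the median of all genes as a dashed line. The members span -1.67 to 1.18, and the rightmost of the other claudins is Cldn2, which is dim in control replicates 1 and 2.

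The remaining junction genes were taken from lists, also chosen with earlier results of these data known. Of 56 measured in 3 further tight junction lists none passed, 27 were higher and 29 lower, with a median of -0.03, and 14 had groups without overlap, beside 19.6% of all genes. Over the 20 claudins measured in all, members included, 13 were higher and 7 lower (65% higher, against 50.8% of all genes). Of the 20, 4 were below the 25th percentile on all 6 arrays, so their directions say little. These 4 are also among the 56. Cldn2, which forms a pore for cations and water and marks leaky epithelia, read 5.13, 4.67 and 5.95 in controls and 6.55, 8.90 and 7.52 in null lungs, all above the controls but widely spread (SE of the difference 0.62, limma adjusted p = 0.178). Control replicates 1 and 2 are below the 25th percentile, so the size of its difference is not known, and its other probe set is below that percentile on all 6 arrays. Cldn23, a little-studied claudin, differed by 0.55 (SE 0.23, limma adjusted p = 0.406) with overlap. Cldn5, the main claudin of endothelium, read 13.06 to 13.27 over the controls and 12.71 to 13.27 over the null lungs, so the groups overlapped.

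Among 16 other membrane proteins of the junction, 8 were lower and 8 higher. Cxadr, an adhesion protein that also serves as the coxsackievirus and adenovirus receptor, differed by -0.56 (SE 0.17, limma adjusted p = 0.232) on its brightest probe set, while its other 4 probe sets gave -0.22 to -0.01. Among 27 scaffold and polarity genes 17 were lower and 10 higher, with a median of -0.09. Magi3, a scaffold with many protein-binding domains, differed by -0.53 (SE 0.12, limma adjusted p = 0.144) and its 2 dimmer probe sets by -0.39 and -0.35. Pard3b, a polarity protein, differed by -0.44 (SE 0.16, limma adjusted p = 0.322), with -0.33 and -0.41 on the other probe sets.

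In the neighbouring adherens junctions and desmosomes, none of 23 genes passed and the median was 0.03. Ppl, which encodes the desmosome linker periplakin, differed by 0.72 (SE 0.19, limma adjusted p = 0.186), and Nectin1, a cell adhesion protein, by 0.42 (SE 0.12, limma adjusted p = 0.221). Of 25 factors and proteases that regulate epithelial junction genes none passed either. Elf3, an epithelial transcription factor, read 7.62 to 8.02 over the controls and 8.45 to 8.89 over the null lungs, a difference of 0.82 (SE 0.17, limma adjusted p = 0.106). Grhl1, a grainyhead factor of epithelial junctions, read 8.54 to 9.005 over the controls and 7.34 to 8.04 over the null lungs, a difference of -1.05 (SE 0.22, limma adjusted p = 0.111). For both genes the groups do not overlap. The Grhl1 reading was lowest in null replicate 1, the array that stood apart from the other null arrays. So were the readings of Cldn1, Cldn8, Ocln and Tjp1 on their brightest probe sets.

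Of 9 measured leukocyte genes 4 passed and rose (0.473% of all genes), Cd68, Itgax, Tyrobp and Fcer1g. Cd68, a lysosomal protein of macrophages, was 1.45 higher (SE 0.13, limma adjusted p = 0.0198). The list averaged 10.62 to 10.94 per control array and 11.50 to 12.05 per null array. None of 11 goblet cell genes passed, yet 10 were higher and 6 had all null arrays above all controls (10.8% of all genes), with a median of 1.25, the largest of the 16 lists beside the members. That list averaged 7.00 to 8.71 per control array, lowest in control replicate 2, and 9.23 to 9.83 per null array. All 6 basal cell genes were higher, 3 of them with all null arrays above all controls (10.8% of all genes). Their median was 0.24 with none past the threshold, and that list averaged 6.55 to 6.71 and 6.91 to 7.18. Of 9 ciliated cell genes 8 were lower, with a median of -0.26, none past the threshold and array means of 8.88 to 9.39 against 8.74 to 8.80. Markers of oesophagus, stomach, thymus and thyroid, organs that can be taken along with the lung, averaged 5.12 to 5.34 and 5.33 to 5.62, with none of 9 past the threshold. The 10 mesenchymal genes all had lower means in null lungs, with a median of -0.11, and none passed. The part of these cells in the differences of the tight junction genes was not tested.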

How the data were processed

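Whole-lung total RNA of 3 control and 3 Foxa2-/- samples was labelled with biotin and read on 1 Affymetrix array each. The deposited log2 values were made by the authors with RMA, per the submitters' processing notes, with version and settings not given in the sources used here. RMA brings arrays to a common distribution, so a shift of most genes would not be seen. Groups came from the genotype label, and replicate numbers, in accession order, pair nothing. Whether every array had its own animal is not stated. The p-values therefore reflect only how much these samples vary, some of which may be technical.

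Of 45101 probe sets, 64 Affymetrix controls were left out. The platform annotation gave 1 symbol for 34945, several for 932 and none for 9160. Each of 18193 genes was represented by its brightest single-symbol probe set. The test was that of limma 3.58.1 under R 4.3.3 (lmFit, eBayes, two-sided, Benjamini-Hochberg over all genes or all probe sets, 95% intervals), a script that was tested on simulated data. The members and the 16 other lists were chosen with earlier results of these data known. Of the list entries, 13 were not analysed here because no single-symbol probe set was found, and 2 were matched through a synonym. Named were all members, Foxa2, the genes most like the member with the smallest p, and from each list up to 4 genes that passed or otherwise the 2 with the smallest p. Cldn5 was added after its values were seen. Cell type lists other than club cells and leukocytes are given by counts, medians or ranges, without the genes the rule would name. Alternatives were median centring, cyclic loess, filters on dim probe sets, trend and robust eBayes, weights per array, a fixed or a random block (statmod 1.5.0) for the title number, only the samples sharing it, each array left out, and averaging the probe sets of each gene. Protein sequences were not used here.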

Additional observations from a re-analysis of the deposited data

How the results depend on the processing

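Over 159 alternative values of the 10 members, 152 kept their direction and side of the threshold, 5 passed it (Cldn8 and Cldn10, given above), and 2 changed sign, both for Cldn3: -0.02 without control replicate 2 and -0.060 without null replicate 1, in a range of -0.060 to 0.35 with each array left out. The count of members called, 0 of 10, became 2 with array weights and 2 with a random block for the title number, and ranged from 0 to 1 with each array left out. With array weights 3.34% of all genes passed, with the random block 2.19% and without null replicate 1 1.37%. Of 18 probe sets, 0 passed, 2 passed with array weights (1.25% of all), 0 with the random block (0.619% of all), and 0 to 1 with each array left out, the 1 without null replicate 1 (0.32% of all). Genes called over the whole array, 104, were 48 with cyclic loess, 607 with array weights, 399 with that random block, 0 with a fixed block and 0 within the samples that share it (2121 at an unadjusted p under 0.05 in limma for both), and 0 to 249 with each array left out, the 0 arising when control replicate 1, control replicate 2 or null replicate 3 was dropped and the 249 when null replicate 1 was. Members without overlap between groups, an alternative added after the data were seen, numbered 5 to 7 with each array left out, beside 26.7% to 34.7% of all genes. The random block was fitted to all 6 samples, but only the 3 with a common title number inform its correlation. Median centring and cyclic loess moved the median of all genes by 0.02 and -0.01, and reversed no member. The replicate numbers are in accession order and pair nothing, and the only tie across groups is the title number, whose blocks are given here. The dim signal of Cldn4 and of 2 Cldn1 probe sets limits how well their sizes are known.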
